A study of Mus musculus with 18 samples.

Results

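The genes described here make cholesterol and fatty acids or switch on the genes that do. They are 31 genes picked by name from a table of 23953 genes: 20 of the sterol arm, from acetyl-CoA to cholesterol with its regulators, and 11 of the fatty acid arm, which makes, lengthens and desaturates fatty acids. Their RNA was read in regulatory T (Treg) cells, CD4+ T cells that hold other immune cells in check and that were sorted here as CD4+CD25hi cells of C57BL/6 mice. In 4 genotypes T cells carried a transgene for miR-23 (miR-23 Tg), for miR-24 (miR-24 Tg), for miR-27 (miR-27 Tg) or for the 3 microRNAs together (cluster Tg). In DKO the miR-23a and miR-23b clusters were both deleted in T cells, and WT was the control. The genotype labels write these groups as DKO Tg and WT Tg, without naming a transgene. Each of the 6 genotypes had 3 libraries, 18 in all. The series title names CD4cre, which acts in T cells from their development in the thymus onward and is not limited to Treg cells. Whether WT animals carried Cre, and the animals' age, are not given in the labels. The labels also do not say that libraries came from separate animals, so p-values measure the spread between these samples.

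Cells make cholesterol by joining acetyl-CoA units into mevalonate, turning mevalonate into squalene, closing squalene into lanosterol and trimming lanosterol in a chain of oxidations and reductions. Fatty acids start from the same acetyl-CoA, released from citrate, and are extended to palmitate, lengthened by elongases and given double bonds by desaturases. SREBP transcription factors, held in the endoplasmic reticulum by INSIG proteins when sterols are plentiful, drive both sets of genes, and proliferating T cells depend on them to build membranes. MicroRNAs of this cluster lower RNAs whose 3' untranslated region (3' UTR) pairs with the seed, bases 2 to 8 of the mature microRNA.

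The mature microRNAs are shown because each transgene expresses one of these seeds, or all of them in cluster Tg. The labels name the families without letter or strand, so the 3p strands of the miR-23a cluster on chromosome 8 are printed, with miR-27b from chromosome 13 to show that both clusters share the miR-27 seed. Capitals mark the seed, and the sequences come from RefSeq annotation of GRCm38.p6.
mmu-miR-23a-3p: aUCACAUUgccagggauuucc
mmu-miR-24-3p: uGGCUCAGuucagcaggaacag
mmu-miR-27a-3p: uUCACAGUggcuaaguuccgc
mmu-miR-27b-3p: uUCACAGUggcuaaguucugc
The miR-23 seed, UCACAUU, and the miR-27 seed, UCACAGU, are different words, so the sites that match them are different too.

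Matches to the seeds were looked for in the longest GENCODE M21 3' UTR of each gene on GRCm38. The sites shown are those of members whose levels are described in full or called below, except for the miR-23 site of Stard4, which is not shown, with the 7 matching bases in capitals and 5' to 3' on the gene's strand.
Scd2, miR-27 site: gcctaacaatACTGTGActcagtat
Scd2, miR-23 site: cacttaaacaAATGTGAaaaataaa
Fads1, miR-27 site: ctcagccttcACTGTGAcacggggg
Elovl6, miR-27 site: tctagtgtcaACTGTGAggagaaac
Elovl6, miR-23 site: aaagttgttcAATGTGAtataatag
Sc5d, miR-27 site: gacactgatcACTGTGAattatctt
Fads2, miR-23 site: gcatgagggaAATGTGAgggcaggt
Insig1, miR-24 site: gaaaaccaatCTGAGCCttgtattc
The Scd2 sites lie at chr19:44306435-44306459 and chr19:44305549-44305573, plus strand, in the 3' UTR. The Fads1 site is at chr19:10196562-10196586, plus strand, and the Fads2 site at chr19:10063031-10063055, minus strand. The Elovl6 sites are at chr3:129636583-129636607 and chr3:129635140-129635164, plus strand. The Sc5d site is at chr9:42252874-42252898, minus strand, and the Insig1 site at chr5:28077777-28077801, plus strand. Over all 31 members, tested or not, 5 (16.1%) had a miR-27 site, against 17.1% of 10192 tested genes with a 3' UTR of at least 50 bases. A miR-23 site was present in 6 members (19.4%), against 16.5% of those genes, and a miR-24 site in 4 members (12.9%), against 19.1%. The median 3' UTR was 1600 bases in the members and 1155 in the 10192 genes, and the shares are not adjusted for length. A match is a run of letters and was not tested as a binding site.

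Values are RPKM, read numbers divided by transcript length and library size, as the authors deposited them. Depth, estimated from the steps between low RPKM values, was 20.5 to 31.4 megareads per library, and 10710 to 11121 genes had at least 1 RPKM. The Treg label held: Foxp3, the Treg lineage factor, averaged 236 ± 17.8 RPKM in miR-23 Tg, the lowest genotype mean, against 319 ± 27.9 RPKM in WT (SD, n = 3 each). Il2ra, which encodes CD25, averaged 167 ± 14.4 RPKM in miR-23 Tg, again the lowest mean, against 222 ± 28.2 RPKM in WT. CD25 was used for the sort, so Il2ra is no separate check of the label. Of 7 Treg markers, these 2 among them, limma called 0 in miR-23 Tg against WT, with 4 at an unadjusted p under 0.05. The median log2 fold change of the 7 was -0.25, with 5 below 0 and 2 above. RNA of other cells and of dividing cells was also present, in unequal amounts. The 10 B cell markers summed to 179 to 265 RPKM in miR-23 Tg, 170 to 567 in miR-24 Tg, 343 to 572 in miR-27 Tg, 186 to 312 in cluster Tg, 120 to 168 in DKO and 101 to 148 in WT, with none of them at 0 in any library. The 18 proliferation genes summed to 455 to 488 RPKM in miR-23 Tg, 263 to 427 in miR-24 Tg, 456 to 988 in miR-27 Tg, 445 to 498 in cluster Tg, 191 to 338 in DKO and 201 to 301 in WT. The part of either in the results that follow was not tested, except as covariates where stated.

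Of the 31 members, 29 were above 0 RPKM in each of the 18 libraries, at widely different levels. On the RPKM scale, which is per length, Elovl5 was highest, with a mean of 86.3 over the 18 libraries (70.6 to 105). Elovl5 lengthens polyunsaturated fatty acids. Acly, which releases acetyl-CoA from citrate, followed at 67.4 (59.3 to 78.6), and Srebf2, the SREBP that favours sterol genes, at 62.2 (49.4 to 80.7). These 3 ranges overlapped their neighbours, so the order among them was not clear of the spread between libraries. Scd2 (37.5), Ebp (34.8), Srebf1 (30.6), Fasn (26.2) and Sc5d (20.7) came next by mean RPKM. The other tested sterol enzymes lay between 17.4 for Dhcr7 and 2.94 for Hsd17b7. The lowest of the tested members were Acaca at 1.84, Scd1 at 1.34 and Fads2 at 1.06 mean RPKM.

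Of the 31 members, 28 were tested, 18 sterol and 10 fatty acid genes, because they had at least 1 RPKM in at least 3 libraries. Idi1, the isomerase that prepares isoprenoid units for joining, stayed below the filter at 0.449 to 0.986 RPKM. Me1, a malic enzyme that makes NADPH, was at 0 to 0.0266 RPKM. Hmgcs1, which makes HMG-CoA, was listed at 0 in all 18 libraries. Mvk, another early enzyme of the pathway, was at 8.91 ± 0.491 RPKM in WT (SD, n = 3), so the listing of Hmgcs1 at 0 may be a failed estimate and was not read as absence. Fads2 passed the filter through 3 miR-27 Tg and 2 cluster Tg libraries only, and Scd1 through 9 libraries, all of them transgenic. Both therefore had to differ between genotypes to be tested at all, so their calls below describe size and order and support nothing further.

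**Figure D1:**
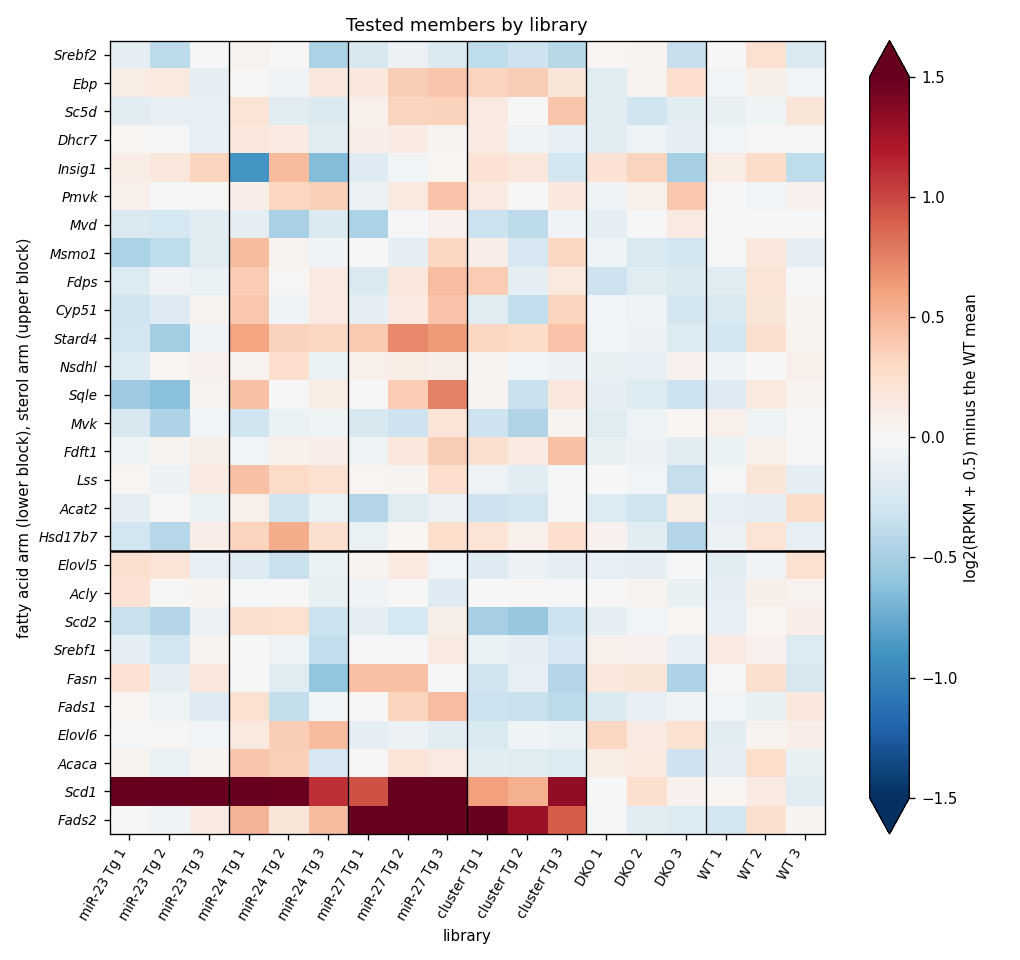
Difference of each library from the WT mean, in log2(RPKM + 0.5), for the 28 tested members (rows, sterol arm above the line and fatty acid arm below) in 18 libraries (columns). Colours stop at 1.5 in either direction. Most squares are pale; those more than 1 from the WT mean are all of Scd1, in libraries of the 4 transgenic lines, or of Fads2, in miR-27 Tg and cluster Tg, and the deepest blue is Insig1 in miR-24 Tg library 1.

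Few members changed. In bulk samples such as these, fewer cells of a type and less RNA per cell cannot be told apart. Folds were estimated with limma on log2(RPKM + 0.5), which understates changes of low genes, and a gene was called at a Benjamini-Hochberg adjusted p under 0.05 over 11520 genes within a comparison, two-sided. In miR-27 Tg against WT, 4 of 28 members were called higher, beside 15.9% of all genes, and 0 lower, beside 12.7%. In cluster Tg against WT, 1 was higher, beside 13.8%, and 1 lower, beside 10.5%. In miR-24 Tg against WT, 2 were higher, beside 4.6%, and 0 lower, beside 4.38%. In miR-23 Tg against WT limma called 0 higher, beside 0.156%, and 0 lower, beside 0.2%, with 1 member at an unadjusted p under 0.05. In DKO against WT limma called 0 higher, beside 0.0174%, and 0 lower, beside 0%, again with 1 member at an unadjusted p under 0.05. Among the members called higher were Fads2 and Scd1 in miR-27 Tg, Fads2 in cluster Tg and Scd1 in miR-24 Tg. The shares of members called were near or below those of all genes in miR-27 Tg and cluster Tg.

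Between transgenic lines, miR-27 Tg against miR-23 Tg gave 4 members higher, beside 12.4% of all genes, and 0 lower, beside 10.9%. In miR-27 Tg against miR-24 Tg 1 member was higher, beside 13.2%, and 1 lower, beside 10.9%. In cluster Tg against miR-27 Tg 0 members were higher, beside 3.5%, and 2 lower, beside 3.35%. Of the members that limma did not call in these 3 comparisons, 4, 5 and 3 had an unadjusted p under 0.05. Cluster Tg against DKO, gain against loss of the same microRNAs, gave 4 members higher, beside 15.1%, and 2 lower, beside 11.6%.

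Median fold changes of the arms were small. For the 18 sterol genes the median log2 fold change against WT was -0.13 for miR-23 Tg, 0.06 for miR-24 Tg, 0.10 for miR-27 Tg, 0.01 for cluster Tg and -0.12 for DKO. For the 10 fatty acid genes it was 0.01 for miR-23 Tg, 0.00 for miR-24 Tg, 0.08 for miR-27 Tg, -0.16 for cluster Tg and -0.03 for DKO. Over all genes tested the median was 0.01 for miR-23 Tg, miR-24 Tg and miR-27 Tg, 0.02 for cluster Tg and -0.00 for DKO. The comparisons share the WT libraries, so these medians are not independent of each other. In DKO the 95% interval of every one of the 28 members lay within a log2 fold change of 1 in either direction, and in miR-23 Tg that of 27 did.

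The largest difference of any member was in Fads2, the desaturase that starts the conversion of essential fatty acids to longer polyunsaturated ones (chromosome 19, 10062765 to 10101746, minus strand, GRCm38). It had 1.58, 5.02 and 6.58 RPKM in miR-27 Tg and 1.96, 1.06 and 0.697 RPKM in cluster Tg. In miR-24 Tg it had 0.405, 0.219 and 0.381 RPKM, in miR-23 Tg 0.131, 0.111 and 0.192, in DKO 0.129, 0.0677 and 0.0508, and in WT 0.0224, 0.253 and 0.154. The 3 miR-27 Tg and 3 cluster Tg libraries stood above all others, and the lowest miR-27 Tg library lay within the cluster Tg range. Against WT the log2 fold change was 2.77 ± 0.36 (SE) in miR-27 Tg, with an adjusted p from limma of 0.000145. In cluster Tg against WT it was 1.39 ± 0.36, adjusted p = 0.0130.

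Fads2 was also higher in miR-27 Tg than in miR-23 Tg, with a log2 fold change of 2.75 and an adjusted p from limma of 0.000173, and than in miR-24 Tg, at 2.38 and 0.000523. With the proliferation score as a covariate the log2 fold change was 1.71 in miR-27 Tg against WT, adjusted p = 0.0570, and 0.75 in cluster Tg against WT, adjusted p = 0.229. The call in cluster Tg against WT was also lost without cluster Tg library 1 (adjusted p = 0.0761) and without WT library 1 (0.0542). Cluster Tg was lower than miR-27 Tg by -1.38 on the log2 scale, adjusted p = 0.0353, a call that did not survive leaving out miR-27 Tg library 2 (0.134) or 3 (0.136) or cluster Tg library 2 (0.0864) or 3 (0.0970). That call was also lost with the B cell score (-0.83, adjusted p = 0.470) or the proliferation score (-0.96, 0.109), with a pseudocount of 0.1 (0.0810), in the fit to these 2 groups (0.229) and without miR-24 Tg library 1 together with miR-27 Tg library 3 (0.148). In cluster Tg against DKO the proliferation score left 0.86, adjusted p = 0.173. In DKO against WT the log2 fold change of Fads2 was -0.13, with a 95% interval of -0.90 to 0.64.

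Fads1, its neighbour in the same stretch of chromosome 19, acts on the next desaturation of the same fatty acids. It had 5.70, 7.28 and 7.98 RPKM in miR-27 Tg, 4.40, 4.37 and 4.19 RPKM in cluster Tg, 4.79, 5.13 and 5.43 RPKM in DKO, and 5.46, 5.19 and 6.36 RPKM in WT. Cluster Tg lay below every other genotype's mean, and its libraries overlapped neither miR-27 Tg nor WT. Fads1 was lower in cluster Tg than in miR-27 Tg by -0.62 ± 0.14 (SE) on the log2 scale, adjusted p from limma 0.0197. Against WT it was not called in cluster Tg, at -0.35 with an adjusted p of 0.0832, nor in miR-27 Tg, at 0.27 and 0.167. The call between cluster Tg and miR-27 Tg was lost without miR-27 Tg library 2 (0.0750) or 3 (0.0797) or cluster Tg library 1 (0.0548), with the B cell score (-0.31, adjusted p = 0.377) or the proliferation score (-0.43, 0.0542) as a covariate, and in the fit to these 2 groups (0.141).

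Scd1, a stearoyl-CoA desaturase that makes monounsaturated fatty acids (chromosome 19, 44394455 to 44407879, minus strand), was higher in all 4 transgenic lines by level. It had 1.86, 1.59 and 1.74 RPKM in miR-23 Tg, 4.44, 1.56 and 1.09 RPKM in miR-24 Tg, 0.938, 2.68 and 4.02 RPKM in miR-27 Tg, and 0.637, 0.570 and 1.36 RPKM in cluster Tg. In DKO it had 0.239, 0.375 and 0.272 RPKM, and in WT 0.258, 0.308 and 0.161. No transgenic library overlapped a DKO or WT library, and DKO overlapped WT. The log2 fold change against WT was 1.89 ± 0.41 (SE) in miR-27 Tg, adjusted p from limma 0.00361, and 1.77 ± 0.41 in miR-24 Tg, adjusted p = 0.0150. It was 1.59 in miR-23 Tg, adjusted p = 0.110, and 0.83 in cluster Tg, adjusted p = 0.157, both short of a call.

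Levels of Scd1 and of B cell markers had the same top library in some genotypes and not in others. In miR-24 Tg the library with 4.44 RPKM of Scd1 was the one with a B cell marker sum of 567 RPKM, and in miR-27 Tg the library with 4.02 RPKM had a sum of 572. In cluster Tg the library with the most Scd1, 1.36 RPKM, had the lowest sum, 186 RPKM, and that with 0.637 RPKM had the highest, 312 RPKM. In miR-23 Tg the library with the most Scd1, 1.86 RPKM, also had the highest sum, 265 RPKM. Its other libraries had 1.59 RPKM at a sum of 260 RPKM and 1.74 RPKM at a sum of 179 RPKM. The B cell score, the mean over the markers of the log2 difference from WT, weights the markers equally, and by it cluster Tg library 3 was the highest of its genotype, at 0.94. With the B cell score as a covariate the log2 fold change of Scd1 was 0.17 in miR-27 Tg against WT, adjusted p from limma 0.768, and 0.44 in miR-24 Tg against WT, adjusted p = 0.292. With the proliferation score instead, Scd1 in miR-27 Tg was at 1.17, adjusted p = 0.273. Without miR-24 Tg library 1 the log2 fold change in miR-24 Tg was 1.29 (adjusted p = 0.0630), and without WT library 3 it was 1.69 (0.0551), and the fit to these 2 groups gave an adjusted p of 0.0586.

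Scd2, the paralog with the higher RPKM in these cells, went the other way in cluster Tg. It had 28.8, 27.5 and 32.5 RPKM in cluster Tg, against 37.5, 41.8 and 43.8 RPKM in WT. The levels were 32.3, 30.1 and 38.6 RPKM in miR-23 Tg, 48.6, 48.1 and 32.6 RPKM in miR-24 Tg, 36.9, 34.0 and 43.6 RPKM in miR-27 Tg, and 37.3, 39.9 and 41.8 RPKM in DKO. Every cluster Tg library lay below every WT and DKO library. Scd2 fell by 0.46 ± 0.14 (SE) on the log2 scale in cluster Tg against WT, adjusted p from limma 0.0304, and was lower than in DKO by -0.42, adjusted p = 0.0444. The call against WT was lost without cluster Tg library 1 (0.0982) or 2 (0.0920) or WT library 2 (0.0763) or 3 (0.0964), with the log2 fold change between -0.41 and -0.45, and with the proliferation score as a covariate (-0.44, 0.133). The call against DKO was lost without cluster Tg library 1 (0.124) or 2 (0.122) or DKO library 1 (0.0657), 2 (0.0984) or 3 (0.102). It was also lost with the replicate number as a block (0.0523), with no filter on low values (0.0652) and with the proliferation score (-0.39, 0.183).

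Scd1 and Scd2 are close paralogs. How the counting treated reads that match both is not given in the sources used here, so the split between them is uncertain, above all for Scd1 with its far lower level.

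**Figure D2:**
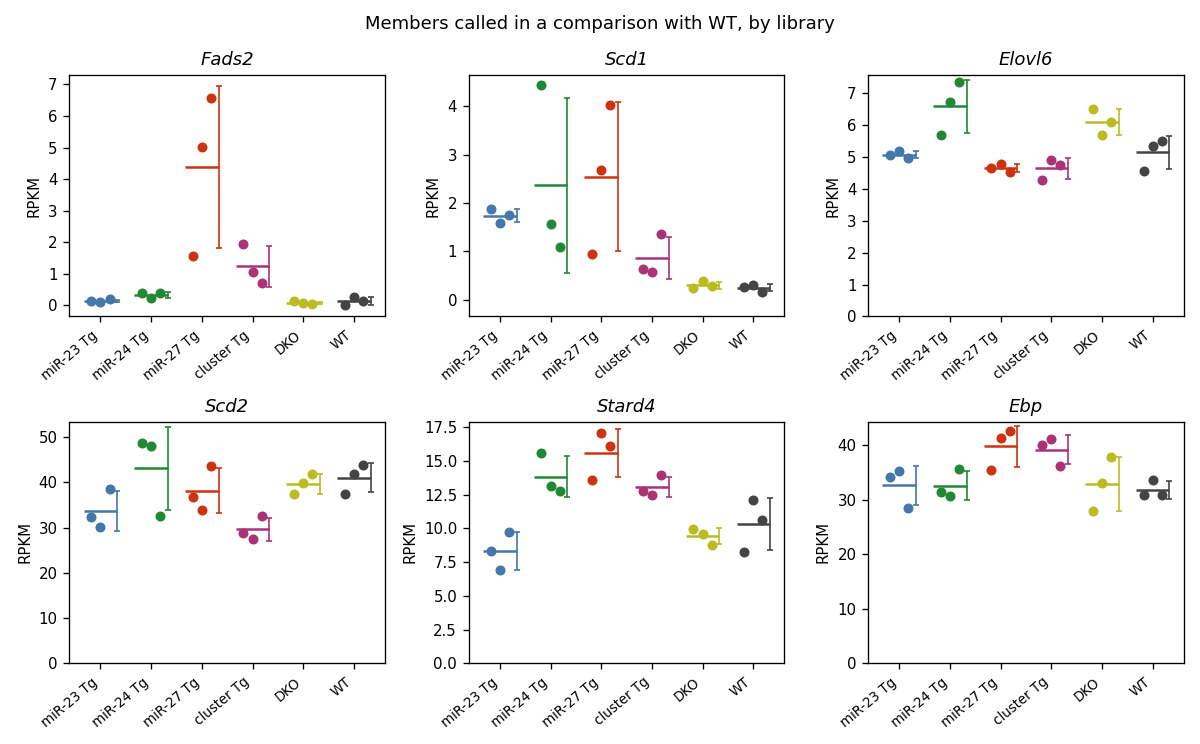
RPKM of the 6 members called in a comparison with WT, by genotype, with 1 point per library; horizontal lines are means and bars are 1 SD (n = 3). Fads2 stands out in miR-27 Tg and cluster Tg, Scd1 in all 4 transgenic lines, and Scd2 is lowest in cluster Tg.

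Elovl6 lengthens palmitate to stearate, the substrate of the stearoyl-CoA desaturases. It had 5.70, 6.74 and 7.34 RPKM in miR-24 Tg, 4.64, 4.78 and 4.53 RPKM in miR-27 Tg, 4.29, 4.90 and 4.74 RPKM in cluster Tg, 5.05, 5.19 and 4.97 RPKM in miR-23 Tg, 6.49, 5.68 and 6.08 RPKM in DKO, and 4.56, 5.36 and 5.51 RPKM in WT. The miR-24 Tg and DKO libraries were all above the WT libraries, while miR-27 Tg and cluster Tg overlapped WT at its low end. Elovl6 rose by 0.33 ± 0.09 (SE) on the log2 scale in miR-24 Tg against WT, adjusted p from limma 0.0437. In DKO against WT it was at 0.23 with an unadjusted p of 0.0303 and an adjusted p of 1. It was lower in miR-27 Tg than in miR-24 Tg by -0.46, adjusted p = 0.00376, and lower in cluster Tg than in DKO by -0.36, adjusted p = 0.0120.

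The small rise of Elovl6 in miR-24 Tg was called in 5 of 15 alternatives. It was lost without miR-24 Tg library 2 (0.106) or 3 (0.148) and without WT library 1 (0.179), 2 (0.0729) or 3 (0.0579). It was also lost with no filter (0.0683), median-of-ratios scaling (0.0579), the B cell score (0.0551), the proliferation score (0.0618) and the fit to these 2 groups (0.172). The lower level in cluster Tg against DKO was lost without cluster Tg library 1 (0.0618) or DKO library 1 (0.0528) and in the fit to these 2 groups (0.0707). The difference between miR-27 Tg and miR-24 Tg was lost in 1 alternative, the fit to these 2 groups only (0.0591).

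The enzymes that build palmitate were not called in any comparison. Acly averaged 64.0 ± 4.13 RPKM in miR-27 Tg and 67.4 ± 1.25 RPKM in cluster Tg, against 67.8 ± 5.64 RPKM in WT (SD, n = 3 each). Its 95% interval in miR-27 Tg against WT was -0.25 to 0.08 on the log2 scale. Acaca, which makes malonyl-CoA, averaged 1.98 ± 0.148 RPKM in miR-27 Tg and 1.52 ± 0.0275 RPKM in cluster Tg, against 1.81 ± 0.377 RPKM in WT. Fasn, the fatty acid synthase that assembles palmitate, averaged 32.6 ± 5.86 RPKM in miR-27 Tg, 21.5 ± 2.46 RPKM in cluster Tg and 22.3 ± 4.58 RPKM in miR-24 Tg, against 26.6 ± 4.55 RPKM in WT. Its log2 fold change was 0.55 in miR-27 Tg against miR-24 Tg, adjusted p from limma 0.0645, and -0.58 in cluster Tg against miR-27 Tg, adjusted p = 0.0997. Elovl5 averaged 91.9 ± 6.04 RPKM in miR-27 Tg, 80.3 ± 3.09 RPKM in cluster Tg and 77.1 ± 6.22 RPKM in miR-24 Tg, against 89.5 ± 12.9 RPKM in WT.

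In the sterol arm the clearest difference was in Stard4, a carrier that moves cholesterol between membranes inside the cell. It had 13.6, 17.1 and 16.1 RPKM in miR-27 Tg, 12.8, 12.5 and 13.9 RPKM in cluster Tg, 15.6, 13.1 and 12.8 RPKM in miR-24 Tg, 8.34, 6.94 and 9.73 RPKM in miR-23 Tg, 9.92, 9.57 and 8.76 RPKM in DKO, and 8.25, 12.1 and 10.6 RPKM in WT. The miR-27 Tg, cluster Tg and miR-24 Tg libraries were all above the WT libraries, while miR-23 Tg and DKO overlapped WT. Stard4 rose by 0.58 ± 0.14 (SE) on the log2 scale in miR-27 Tg against WT, adjusted p from limma 0.00686. It was not called in miR-24 Tg, at 0.42 with an adjusted p of 0.0793, or in cluster Tg, at 0.34 and 0.0912.

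Stard4 was higher in miR-27 Tg than in miR-23 Tg by 0.87 on the log2 scale, adjusted p from limma 0.000729, and this call held in all 15 alternatives. In cluster Tg against DKO it was higher by 0.45, adjusted p = 0.0266, a call lost without cluster Tg library 1 (0.0669) or 3 (0.0719) or DKO library 2 (0.0583) or 3 (0.0729), and with the B cell score (0.39, 0.0692) or the proliferation score (0.31, 0.254). The call in miR-27 Tg against WT held without each library. It was lost with the B cell score (log2 fold change 0.36, adjusted p = 0.397) or the proliferation score (0.35, 0.338) as a covariate.

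Ebp, an isomerase of the late pathway, had 35.5, 41.3 and 42.6 RPKM in miR-27 Tg and 40.1, 41.2 and 36.2 RPKM in cluster Tg, against 30.8, 33.7 and 30.9 RPKM in WT. It had 34.3, 35.2 and 28.6 RPKM in miR-23 Tg, 31.5, 30.7 and 35.6 RPKM in miR-24 Tg and 28.0, 33.1 and 37.8 RPKM in DKO. The miR-27 Tg and cluster Tg libraries did not overlap the WT libraries, and the other genotypes did. Ebp rose by 0.32 ± 0.11 (SE) on the log2 scale in miR-27 Tg against WT, adjusted p from limma 0.0472, and was at 0.30 in cluster Tg, adjusted p = 0.0690. This call was lost without miR-27 Tg library 2 (0.135) or 3 (0.158) and without WT library 1 (0.127), 2 (0.0594) or 3 (0.116), with no filter (0.0637), with median-of-ratios scaling (0.0741), in the fit to these 2 groups (0.0508) and without miR-24 Tg library 1 together with miR-27 Tg library 3 (0.178). With the B cell score as a covariate the log2 fold change was 0.21, adjusted p = 0.575, and with the proliferation score -0.09, adjusted p = 0.724.

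The first steps of the mevalonate pathway were not called in any comparison. In miR-27 Tg against WT, Acat2, a thiolase that joins acetyl-CoA, averaged 5.85 ± 0.783 RPKM, against 6.99 ± 1.27 RPKM in WT (SD, n = 3 each). Mvk, mevalonate kinase, averaged 8.27 ± 1.75 RPKM in miR-27 Tg, against 8.91 ± 0.491 RPKM in WT. Pmvk, which adds the next phosphate, averaged 16.7 ± 3.07 RPKM in miR-27 Tg and 17.7 ± 1.74 RPKM in miR-24 Tg, against 14.7 ± 0.642 RPKM in WT. Mvd, which removes the carboxyl group, averaged 15.9 ± 3.15 RPKM in miR-27 Tg and 14.3 ± 1.86 RPKM in miR-24 Tg, against 17.4 ± 0.0948 RPKM in WT. Fdps, which builds farnesyl diphosphate, averaged 15.03 ± 3.58 RPKM in miR-27 Tg and 11.3 ± 0.531 RPKM in DKO, against 13.5 ± 1.85 RPKM in WT. The smallest adjusted p from limma among these 5 genes in the comparisons with WT was 0.184, for Mvd in cluster Tg at 14.6 ± 1.87 RPKM.

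Squalene synthase and squalene epoxidase were called between lines but not against WT. Fdft1, the synthase, had 8.82, 8.06 and 10.2 RPKM in cluster Tg, against 6.81, 6.92 and 6.53 RPKM in DKO. These groups did not overlap, and Fdft1 was higher in cluster Tg by 0.39 ± 0.11 (SE) on the log2 scale, adjusted p from limma 0.0157. WT had 6.86, 7.84 and 7.48 RPKM (7.39 ± 0.497), also below every cluster Tg library. Against WT, cluster Tg was at 0.26 with an adjusted p of 0.0860, short of a call. The call against DKO was lost without cluster Tg library 3 (0.0595), with the proliferation score as a covariate (0.23, 0.238) and in the fit to these 2 groups (0.0650).

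Sqle, the epoxidase, had 10.4, 13.7 and 17.98 RPKM in miR-27 Tg, against 6.95, 6.55 and 10.7 RPKM in miR-23 Tg. The lowest miR-27 Tg library was below the highest miR-23 Tg library. Sqle was higher in miR-27 Tg than in miR-23 Tg by 0.76 ± 0.21 (SE) on the log2 scale, adjusted p from limma 0.0171. WT lay between them at 10.5 ± 1.28 RPKM, and neither line was called against it (log2 fold change 0.38 in miR-27 Tg and -0.38 in miR-23 Tg). The call between the lines was lost without miR-23 Tg library 1 (0.0659) or 2 (0.0770) or miR-27 Tg library 3 (0.0831), without miR-27 Tg library 3 together with miR-24 Tg library 1 (0.0774), with the proliferation score as a covariate (0.59, 0.0778) and in the fit to these 2 groups (0.0746).

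Sc5d, a late sterol desaturase, had 21.6, 25.8 and 26.0 RPKM in miR-27 Tg, against 18.05, 18.7 and 18.6 RPKM in miR-23 Tg. It had 22.4, 20.5 and 27.3 RPKM in cluster Tg, against 18.2, 16.4 and 18.1 RPKM in DKO. Neither pair of groups overlapped. Sc5d was higher by 0.39 ± 0.12 (SE) on the log2 scale in miR-27 Tg than in miR-23 Tg, adjusted p from limma 0.0337, and by 0.39 in cluster Tg than in DKO, adjusted p = 0.0290. It was not called in miR-27 Tg against WT, at 0.25 with an adjusted p of 0.146. The first call was lost without any of 5 libraries, miR-23 Tg libraries 1 (0.0887), 2 (0.0757) and 3 (0.0704) and miR-27 Tg libraries 2 (0.106) and 3 (0.112), and without the last of these together with miR-24 Tg library 1 (0.0718). It was also lost with the B cell score (0.30, 0.0521) or the proliferation score (0.29, 0.133) as a covariate. The second was lost without cluster Tg library 1 (0.0623) or 3 (0.111) or DKO library 1 (0.0549) or 2 (0.0984), with the B cell score (0.28, 0.0623) or the proliferation score (0.23, 0.320), and in the fit to these 2 groups (0.0773).

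The remaining enzymes between lanosterol and cholesterol were not called in any comparison. Lss, which closes squalene epoxide into lanosterol, averaged 8.05 ± 0.648 RPKM in miR-24 Tg, against 6.38 ± 0.817 RPKM in WT, with an adjusted p of 0.0932. Hsd17b7, a reductase of the middle steps, averaged 3.80 ± 0.484 RPKM in miR-24 Tg, against 2.82 ± 0.423 RPKM in WT, with an adjusted p of 0.171. Msmo1, a methylsterol oxidase, was lowest in miR-23 Tg at 11.2 ± 1.25 RPKM, against 14.4 ± 1.53 RPKM in WT, with an adjusted p of 0.372. Cyp51, the lanosterol demethylase, averaged 13.2 ± 2.73 RPKM in miR-27 Tg, against 11.9 ± 1.76 RPKM in WT. Nsdhl, a sterol dehydrogenase, averaged 11.9 ± 0.185 RPKM in miR-27 Tg, against 11.2 ± 0.612 RPKM in WT, and Dhcr7, which makes cholesterol in the last step, 18.6 ± 0.588 RPKM in miR-27 Tg, against 17.5 ± 0.465 RPKM in WT. Nsdhl and Dhcr7 were among the steadiest members, with 95% intervals in miR-27 Tg against WT of -0.11 to 0.29 and -0.10 to 0.27 on the log2 scale.

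The regulators were not called in any comparison. Srebf2 had 53.0, 55.7 and 51.4 RPKM in cluster Tg, against 69.1, 80.7 and 58.7 RPKM in WT. It had 58.3, 64.9 and 59.0 RPKM in miR-27 Tg, 71.5, 69.8 and 49.4 RPKM in miR-24 Tg, 62.2, 52.5 and 67.8 RPKM in miR-23 Tg, and 70.4, 71.1 and 53.9 RPKM in DKO. The cluster Tg libraries were all below the WT libraries, at -0.37 ± 0.15 (SE) on the log2 scale, with an adjusted p from limma of 0.0968.

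Srebf1, whose products favour fatty acid genes, had 31.5, 31.2 and 35.1 RPKM in miR-27 Tg, 29.7, 28.7 and 26.7 RPKM in cluster Tg, 31.8, 30.4 and 24.6 RPKM in miR-24 Tg, 29.1, 26.4 and 33.3 RPKM in miR-23 Tg, 33.8, 33.4 and 29.4 RPKM in DKO, and 35.2, 33.4 and 27.7 RPKM in WT. Every genotype overlapped WT, and in miR-27 Tg the 95% interval against WT was -0.22 to 0.27 on the log2 scale. Insig1, which retains SREBP in the endoplasmic reticulum and is itself an SREBP target, had 8.74, 23.4 and 10.5 RPKM in miR-24 Tg, against 18.1, 20.3 and 12.7 RPKM in WT. It had 14.6, 16.2 and 17.0 RPKM in miR-27 Tg, 19.6, 18.9 and 13.7 RPKM in cluster Tg, 18.2, 18.9 and 21.3 RPKM in miR-23 Tg, and 19.5, 21.2 and 11.7 RPKM in DKO. Its miR-24 Tg libraries spread more widely than those of any other genotype, and the 95% interval in miR-24 Tg against WT was -1.01 to 0.28.

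**Figure D3:**
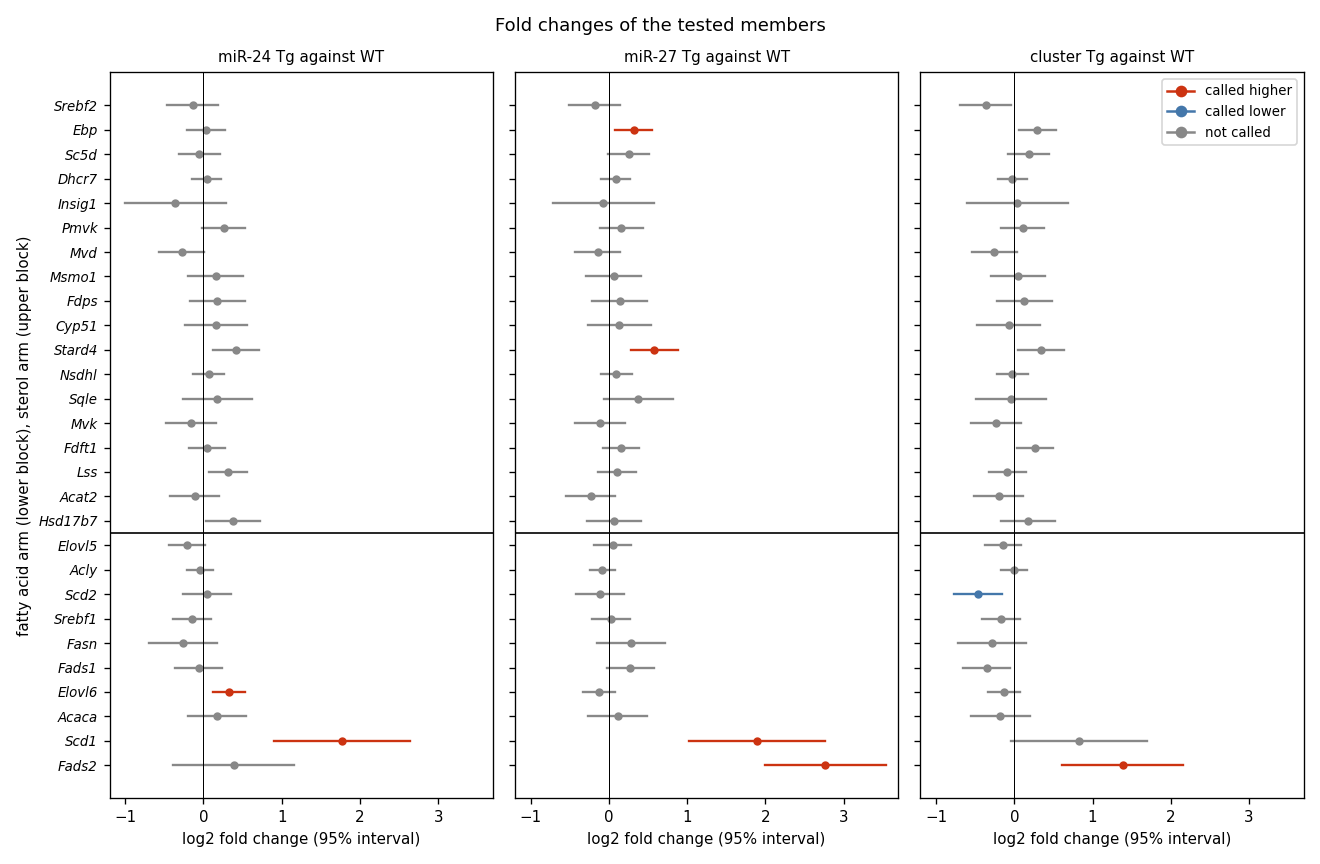
Log2 fold change against WT on log2(RPKM + 0.5), with 95% intervals, of the 28 tested members in miR-24 Tg, miR-27 Tg and cluster Tg (sterol arm above the line, fatty acid arm below). Red marks members called higher and blue members called lower; most intervals cross 0.

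Members with a seed site were not called lower in the line that expressed the matching microRNA alone, but they were few. At the shares of all genes given beside them, counts of 0 among so few members are no result about the sites. Of the 5 members with a miR-27 site, limma called 0 in miR-27 Tg against WT, beside 15.9% of all genes called higher and 12.7% lower. None of the 5 had an unadjusted p under 0.05. Their log2 fold changes there were 0.25 for Sc5d, 0.29 for Fasn, 0.27 for Fads1, -0.11 for Scd2 and -0.13 for Elovl6. In cluster Tg against WT, Scd2, with a miR-27 and a miR-23 site, was called lower, beside 10.5% of all genes. The other 4 were at 0.18 for Sc5d, -0.29 for Fasn, -0.35 for Fads1 and -0.13 for Elovl6.

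For miR-23, the 6 members with a site were at -0.35 for Msmo1, -0.29 for Stard4, -0.29 for Scd2, -0.07 for Acat2, -0.01 for Elovl6 and 0.02 for Fads2 on the log2 scale in miR-23 Tg against WT. Of these, limma called 0, beside 0.156% of all genes called higher and 0.2% lower, with 0 at an unadjusted p under 0.05. The unadjusted p-values from limma were 0.0516 for Msmo1, 0.0563 for Stard4 and 0.0651 for Scd2. Those of Acat2, Elovl6 and Fads2 were 0.623, 0.880 and 0.963. Of the 6, Fads2 was called higher in cluster Tg against WT, beside 13.8% of all genes. For miR-24, the 4 members with a site were at -0.36 for Insig1, -0.26 for Fasn, -0.04 for Acly and 0.18 for Acaca in miR-24 Tg against WT. Again limma called 0, beside 4.6% of all genes called higher and 4.38% lower, with 0 at an unadjusted p under 0.05. In DKO, which lacked both clusters, the members with a site were between -0.21 for Sc5d and 0.23 for Elovl6.

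RefSeq promoters, from 250 bases before to 50 after the gene start on GRCm38.p6, matched 24 members with 30 promoters. The letters TCACNCCAC, one form of the sterol regulatory element, were found on either strand in 1 of these promoters, that of Hmgcs1, against 1.24% of 32851 promoters. CCAAT, the box bound by a frequent partner of SREBP, was found on either strand in 21 of the 30 (70%), against 37.4% of all promoters. Neither motif contains the other, and a match describes letters only.

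Within genotypes the sterol genes varied together from library to library. After each genotype's mean was taken out, the median correlation over 153 pairs of sterol genes was 0.23 across 18 libraries, beside 0.07 over 45 pairs of fatty acid genes and 0.00 over pairs of genes taken at an even spacing from all tested ones. The closest pairs were Sqle with Cyp51 (r = 0.89), Lss with Hsd17b7 (r = 0.82), Sc5d with Acat2 (r = 0.80), Cyp51 with Msmo1 (r = 0.79) and Sqle with Stard4 (r = 0.78). Insig1 ran against Acat2 (r = -0.75). These are descriptions with no test. All genes of a library share its depth and cell mixture, and both differed between libraries, also within genotypes.

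Other genes of sterol synthesis and SREBP processing were mixed. Of 12 listed genes 11 were tested, and in cluster Tg against WT 3 were called higher, beside 13.8% of all genes, and 2 lower, beside 10.5%, in miR-27 Tg 2 higher, beside 15.9%, and 0 lower, beside 12.7%, and in miR-23 Tg, miR-24 Tg and DKO limma called 0, with 2, 2 and 0 at an unadjusted p under 0.05. In cluster Tg, Mbtps2, a protease that releases active SREBP, averaged 6.00 ± 0.336 RPKM, against 4.35 ± 0.272 RPKM in WT (SD, n = 3 each), adjusted p from limma 0.00153. Cyb5r3, a reductase that feeds electrons to desaturation, averaged 38.1 ± 7.58 RPKM, against 24.6 ± 2.42 RPKM in WT, adjusted p = 0.00244. Tm7sf2, a sterol reductase, ranged over 2.72 to 4.88 RPKM in cluster Tg, against 6.03 to 7.60 RPKM in WT (n = 3 each), and was lower in cluster Tg, by -0.74 on the log2 scale (limma, adjusted p = 0.0109). That call was lost without cluster Tg library 1 (adjusted p = 0.0565), with the proliferation score as a covariate (0.0871) and in the fit to these 2 groups (0.0577).

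Genes of other fatty acid synthesis steps included the most clearly lowered ones. Of 12 tested genes of 17 listed, 1 was called higher, beside 15.9% of all genes, and 3 lower, beside 12.7%, in miR-27 Tg against WT, and 1 higher, beside 13.8%, and 2 lower, beside 10.5%, in cluster Tg, while limma called 0 in miR-23 Tg, miR-24 Tg and DKO, with 0, 1 and 0 at an unadjusted p under 0.05. Acss2, which makes acetyl-CoA from acetate, averaged 8.22 ± 0.210 RPKM in miR-27 Tg and 14.2 ± 1.35 RPKM in cluster Tg, against 16.5 ± 0.410 RPKM in WT. It fell by 0.96 ± 0.10 (SE) on the log2 scale in miR-27 Tg, adjusted p from limma 2.48e-05. Pdha1, a subunit of pyruvate dehydrogenase, which makes acetyl-CoA from pyruvate in mitochondria, averaged 49.3 ± 1.68 RPKM in miR-27 Tg, against 82.2 ± 5.79 RPKM in WT, and fell by 0.73, adjusted p = 0.000138. Both calls held in all 15 alternatives.

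Fabp5, a fatty acid carrier, averaged 29.4 ± 7.83 RPKM in miR-27 Tg, against 15.6 ± 0.811 RPKM in WT, and rose by 0.86 on the log2 scale, adjusted p from limma 0.00277. With the proliferation score as a covariate the log2 fold change of Fabp5 was 0.14, adjusted p = 0.691, and with the B cell score 0.72, adjusted p = 0.175. Aacs, which makes acetoacetyl-CoA in the cytosol, fell by 0.29 in cluster Tg, adjusted p = 0.0203. That call was lost without cluster Tg library 1 (0.0871) or WT library 1 (0.0559) or 2 (0.0562).

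Of 8 genes of cholesterol efflux and storage, all tested, 2 were called lower in miR-27 Tg, beside 12.7% of all genes, 2 in cluster Tg, beside 10.5%, and 1 in miR-24 Tg, beside 4.38%, against WT, and none higher by limma, while in miR-23 Tg and DKO limma called 0, with 0 at an unadjusted p under 0.05. Npc2, a lysosomal cholesterol carrier, averaged 77.8 ± 6.75 RPKM in miR-27 Tg, 70.0 ± 5.64 RPKM in cluster Tg and 66.8 ± 3.91 RPKM in miR-24 Tg, against 97.1 ± 1.33 RPKM in WT. Its adjusted p values from limma were 0.0106 in miR-27 Tg, 0.00130 in cluster Tg and 0.00161 in miR-24 Tg. Abca1, a transporter that exports cholesterol, averaged 2.92 ± 1.69 RPKM in miR-27 Tg, against 6.03 ± 1.10 RPKM in WT, and fell by 1.02 on the log2 scale, adjusted p = 0.0279. The Abca1 call was lost without miR-27 Tg library 2 (0.115) or 3 (0.114) or WT library 1 (0.0996) or 2 (0.0677), in the fit to these 2 groups (0.0704) and without miR-24 Tg library 1 together with miR-27 Tg library 3 (0.133). With the B cell score as a covariate the log2 fold change was -0.50, adjusted p = 0.645, and its sign turned to 0.32 with the proliferation score.

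Abcg1, a second exporter, was not called in miR-27 Tg, at 24.6 ± 4.09 RPKM, against 30.2 ± 2.97 RPKM in WT. Soat1, which esterifies cholesterol for storage, averaged 10.04 ± 1.28 RPKM in cluster Tg, against 12.5 ± 1.17 RPKM in WT, and fell by 0.30 on the log2 scale, adjusted p from limma 0.0367. That call was lost without cluster Tg library 1 (0.189) or WT library 2 (0.0854) or 3 (0.139), with no filter (0.0504), with the B cell score (0.0550) or the proliferation score (0.108) as a covariate, and in the fit to these 2 groups (0.130).

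Of 9 tested genes of fatty acid oxidation, the opposite pathway, 4 were called higher, beside 13.8% of all genes, and 0 lower, beside 10.5%, in cluster Tg against WT, and 1 higher, beside 15.9%, and 1 lower, beside 12.7%, in miR-27 Tg, while limma called 0 in miR-23 Tg, miR-24 Tg and DKO, with 1, 1 and 0 at an unadjusted p under 0.05. The median log2 fold change of the 9 genes was 0.19 in cluster Tg, beside 0.02 over all genes tested. Acadvl, which takes the first step for very long chains, averaged 57.0 ± 2.31 RPKM in cluster Tg and 51.7 ± 2.56 RPKM in miR-27 Tg, against 42.8 ± 1.54 RPKM in WT, adjusted p from limma 0.00243 and 0.0212. Etfdh, which passes the electrons on, averaged 22.3 ± 1.22 RPKM in cluster Tg, against 18.2 ± 0.0672 RPKM in WT, adjusted p = 0.00570. Hadha, a subunit of the mitochondrial trifunctional protein, rose by 0.18 on the log2 scale in cluster Tg, adjusted p = 0.0178, a call lost without cluster Tg library 1 (0.0853) or WT library 1 (0.0735), with the proliferation score as a covariate (0.12, 0.164) and in the fit to these 2 groups (0.108). Acadm, the medium-chain enzyme, averaged 13.4 ± 1.27 RPKM in miR-27 Tg, against 17.6 ± 1.16 RPKM in WT, and fell by 0.38, adjusted p = 0.00878. That call was lost with the B cell score (-0.35, adjusted p = 0.240) or the proliferation score (-0.35, 0.184) as a covariate.

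Markers of other cells and of division were called in some genotypes with called members, and had low unadjusted p-values in miR-23 Tg, where limma called 0 members. Of 9 tested B cell markers limma called 9 higher in miR-27 Tg, 5 in miR-24 Tg and 0 in miR-23 Tg, cluster Tg and DKO against WT, where 7, 3 and 0 had an unadjusted p under 0.05. Of 18 proliferation genes limma called 18 higher in miR-27 Tg, 12 in cluster Tg and 0 in miR-23 Tg, miR-24 Tg and DKO against WT, where 18, 2 and 0 had an unadjusted p under 0.05. Their median log2 fold change was 1.39 for miR-23 Tg, 2.23 for miR-27 Tg and 1.26 for cluster Tg. Cd79a, a chain of the B cell receptor, averaged 10.2 ± 6.77 RPKM in miR-27 Tg, 6.05 ± 5.61 RPKM in miR-24 Tg and 6.03 ± 0.495 RPKM in miR-23 Tg, against 1.60 ± 0.732 RPKM in WT (SD, n = 3 each). Lyz2, a myeloid marker, averaged 18.1 ± 12.8 RPKM in miR-27 Tg and 21.6 ± 24.3 RPKM in miR-24 Tg, against 2.36 ± 0.565 RPKM in WT. Mki67, a marker of dividing cells, averaged 62.1 ± 26.7 RPKM in miR-27 Tg and 30.1 ± 1.67 RPKM in cluster Tg, against 9.31 ± 3.22 RPKM in WT.

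Levels of Fads2 and Scd1 are set here beside these markers. In miR-24 Tg library 1, with a B cell marker sum of 567 RPKM, Scd1 was at 4.44 RPKM and Fads2 at 0.405 RPKM. In cluster Tg, where B cell markers summed to 186 to 312 RPKM, Fads2 was at 0.697 to 1.96 RPKM. In miR-23 Tg, where they summed to 179 to 265 RPKM and the proliferation genes to 455 to 488 RPKM, Fads2 was at 0.111 to 0.192 RPKM. The mean log2 difference from WT of the tested B cell markers averaged 0.61 in cluster Tg and 1.37 in miR-23 Tg. That of the proliferation genes averaged 1.19 in cluster Tg and 1.22 in miR-23 Tg.

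**Figure D4:**
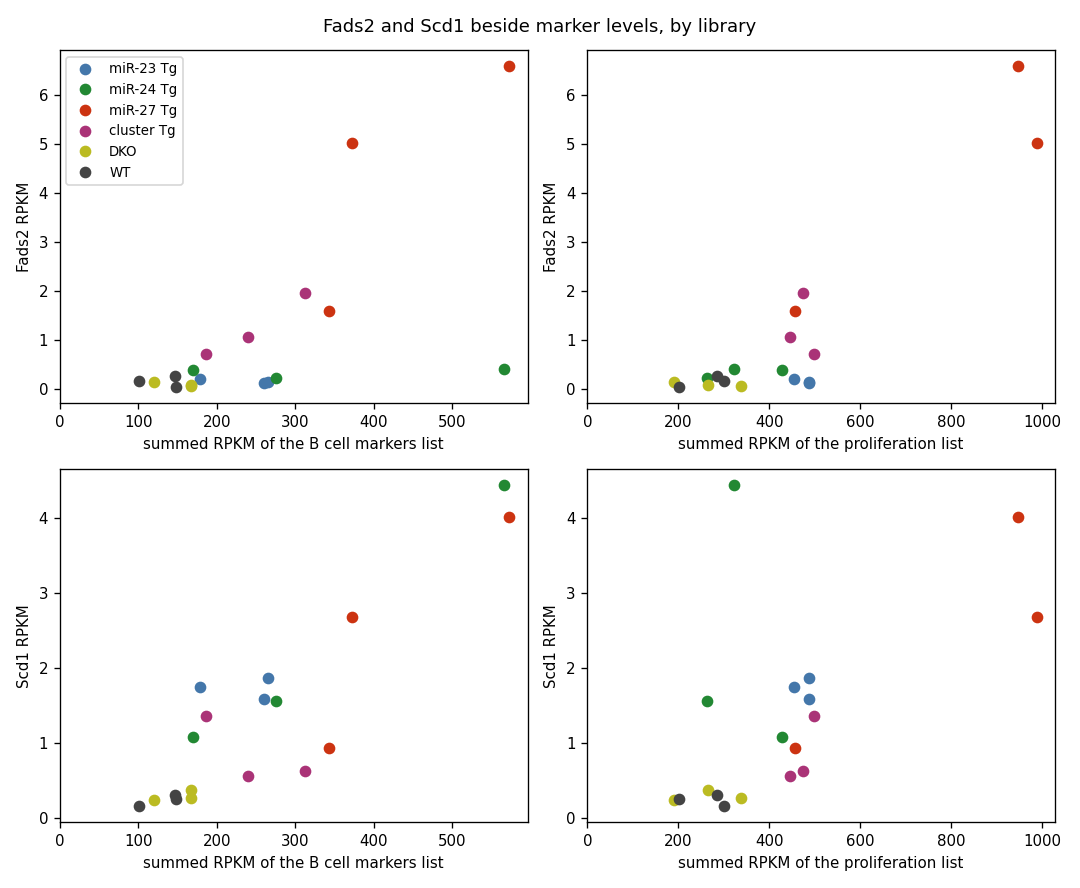
RPKM of Fads2 (top) and Scd1 (bottom) in each of the 18 libraries, against the summed RPKM of the B cell markers (left) and of the proliferation genes (right), coloured by genotype. Scd1 is highest in the 2 libraries with the highest B cell marker sums, while in cluster Tg it is highest in the library with the lowest; Fads2 is high in miR-27 Tg and cluster Tg and low in the miR-24 Tg library with a sum of 567.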

How the data were processed

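RNA was extracted with the Qiagen miRNeasy kit, and libraries were made with the TruSeq kit and run on a HiSeq instrument, per the labels' protocols. The authors deposited 1 table of RPKM values for the 18 libraries. STAR 2.2.0c, HOMER and mm10 (GRCm38) are named in the submitters' processing notes without a role, and the annotation and the treatment of shared reads are not given in the sources used here.

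Here, 4 entries with repeated symbols were left out. Values were log2 transformed with a pseudocount of 0.5 RPKM, 11520 genes that reached 1 RPKM in 3 or more libraries were kept, and 1 limma model (limma 3.58.1, R 4.3.3) with a trend of variance on mean used the 18 libraries together and gave 9 comparisons. Adjusted p-values are Benjamini-Hochberg over all genes tested in a comparison, two-sided. The method was tested on simulated data. The members and lists were chosen with earlier results of these data known, so no count here is independent support. Members called against WT, Srebf1, Srebf2 and Insig1 are given for every library, other members by mean and SD or as values in the compared groups, and of each other list the 4 genes with the smallest adjusted p against WT, except that some genes are not reported here.

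Alternatives were pseudocounts of 0.1 and 1, no filter, median-of-ratios scaling, a fit to the 2 compared groups, a replicate block, each library left out in turn, a B cell or proliferation score as covariate, and leaving out miR-24 Tg library 1 with miR-27 Tg library 3. Depth comes from RPKM steps and counts were not used, so no counting intervals are given. Tables and figures used Python 3.11.15, pandas 2.3.3 and matplotlib 3.10.9.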

Additional observations from a re-analysis of the deposited data

How the results depend on the processing

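Counts of called members moved under several alternatives, and the cause was not tested. The shares of all genes called under the same alternatives are not set beside them. The counts below therefore do not show a change particular to the members. With the proliferation score as a covariate, members called higher were 1 for miR-24 Tg, 0 for miR-27 Tg and 0 for cluster Tg against WT, 2 for miR-27 Tg against miR-23 Tg, 2 for miR-27 Tg against miR-24 Tg and 0 for cluster Tg against DKO, and members called lower were 1 for miR-23 Tg, 1 for miR-24 Tg, 2 for miR-27 Tg and 3 for cluster Tg against WT and 1 for cluster Tg against miR-27 Tg. That covariate also turned the log2 fold changes for miR-27 Tg against WT of Ebp to -0.088, Abca1 to 0.32 and Abcg1 to 0.30. With the B cell score, members called higher were 0 for miR-24 Tg and 1 for miR-27 Tg against WT and 2 for cluster Tg against DKO, and members called lower were 1 for miR-24 Tg, 1 for miR-27 Tg and 3 for cluster Tg against WT, 0 for cluster Tg against miR-27 Tg and 4 for cluster Tg against DKO. In fits to the 2 compared groups, members called higher were 1 for miR-23 Tg, 0 for miR-24 Tg, 2 for miR-27 Tg and 0 for cluster Tg against WT and 1 for cluster Tg against DKO, and members called lower were 0 for miR-27 Tg against miR-24 Tg, 0 for cluster Tg against miR-27 Tg and 1 for cluster Tg against DKO. Without miR-24 Tg library 1 together with miR-27 Tg library 3, members called higher were 1 for miR-23 Tg and 2 for cluster Tg against WT, 2 for miR-27 Tg against miR-23 Tg and 2 for miR-27 Tg against miR-24 Tg, and members called lower were 2 for cluster Tg against WT and 1 for cluster Tg against miR-27 Tg. No filter gave 1 member higher for miR-24 Tg against WT and 1 lower for cluster Tg against DKO, median-of-ratios scaling gave 1 higher for miR-24 Tg against WT, and a pseudocount of 0.1 gave 1 lower for cluster Tg against miR-27 Tg. Leaving out single libraries gave 0 to 2 members higher for miR-24 Tg, 3 to 5 for miR-27 Tg and 0 to 2 for cluster Tg against WT, 2 to 6 for miR-27 Tg against miR-23 Tg, 1 to 4 for miR-27 Tg against miR-24 Tg and 1 to 5 for cluster Tg against DKO, and 0 to 1 lower for cluster Tg against WT, 0 to 3 for cluster Tg against miR-27 Tg and 0 to 2 for cluster Tg against DKO. Over all tested genes, same-numbered libraries showed little shared deviation: over 45 pairs correlations lay between -0.167 and 0.188, median 0.00397, with 6 over 0.1. With 3 numbers to match, 9 of 18 libraries correlated best with their own number, so a small shared part is not excluded. With the replicate number as a block, members called higher were 2 for cluster Tg against WT and 2 for miR-27 Tg against miR-24 Tg, and members called lower 1 for cluster Tg against DKO.

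Genes under about 1 RPKM, among them Fads2 and Scd1 in WT, rest on few reads, and their log2 fold changes move most with the settings: that of Fads2 for miR-27 Tg against WT ran from 1.71 to 4.12 over the alternatives, and that of Scd1 from 0.17 to 2.76. Idi1, Me1 and Hmgcs1 were below the filter and carry no reported test.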
